A study of Mus musculus with 2 samples.

Results

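The 10 genes described here are textbook markers and regulators of the epithelial to mesenchymal transition (EMT), taken by symbol from the gene table of the data: Cdh1, Epcam, Cdh2, Vim, Fn1, Snai1, Snai2, Zeb1, Zeb2 and Twist1. They are 10 of the 32285 genes counted, and each was found once. Their levels were described in both libraries of the study and across LB cells that held transcripts of T, Mesp1 or Hand1. The rule takes the genes by symbol, and they were proposed with earlier results of these data known.

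Mouse embryonic stem cells of the R1 strain were cultured for 72 hours in N2B27 medium and profiled by droplet single-cell RNA sequencing of 3′ transcript ends. Of the 2 cultures, 1 library each, the first (LB) received LIF and BMP4 on gelatin, and the second (LBPXRS) received LIF and BMP4 together with PD0325901, Xav939, SB431542 and a compound named Resorcyclic lactone, on fibronectin. PD0325901 blocks the kinase MEK of the FGF pathway, Xav939 blocks tankyrase and so WNT signalling, and SB431542 blocks the receptors of NODAL, activin and TGF-beta, while the labels give no target for the resorcyclic lactone. LIF and BMP4 were thus common to both cultures, and the substrate changed together with the inhibitors, so their parts cannot be told apart. Fibronectin is also the protein that Fn1 encodes. Each culture is 1 library from 1 stem cell line, so no test across samples was possible, no p-value is given, and the intervals below cover counting error only.

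In EMT, cells joined by E-cadherin (Cdh1) and the adhesion molecule EpCAM lose these contacts and acquire N-cadherin (Cdh2), vimentin filaments (Vim) and a fibronectin matrix (Fn1). Transcription factors of the SNAIL (Snai1, Snai2), ZEB (Zeb1, Zeb2) and TWIST (Twist1) families drive the change, and SNAIL and ZEB proteins repress Cdh1 through E-box sequences in its promoter. In the mouse embryo EMT takes place at the primitive streak, where epiblast cells that express T leave the epithelium and become mesoderm; Mesp1 marks nascent mesoderm, and Hand1 marks extraembryonic and lateral mesoderm and also trophoblast.

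Promoters were read to show where the E-box letters bound by SNAIL and ZEB proteins stand in an epithelial gene, a factor gene and a filament gene described below. The windows hold 250 bases before and 50 bases after the start site, from RefSeq (GRCm38.p6), in the direction of the gene, in lower case with the letters CAGGTG or CACCTG (the same site read on the other strand) in capitals. Epcam lies on the plus strand at chr17:87635729-87636028 and Snai1 on the plus strand at chr2:167537945-167538244; Vim, on the plus strand at chr2:13574061-13574360, is shown for comparison.
Epcam: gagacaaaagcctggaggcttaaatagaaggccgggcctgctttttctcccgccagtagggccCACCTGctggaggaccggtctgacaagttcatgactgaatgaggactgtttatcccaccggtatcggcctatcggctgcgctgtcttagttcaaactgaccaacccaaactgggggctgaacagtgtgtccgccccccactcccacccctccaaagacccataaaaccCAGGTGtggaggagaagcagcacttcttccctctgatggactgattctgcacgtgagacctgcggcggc
Snai1: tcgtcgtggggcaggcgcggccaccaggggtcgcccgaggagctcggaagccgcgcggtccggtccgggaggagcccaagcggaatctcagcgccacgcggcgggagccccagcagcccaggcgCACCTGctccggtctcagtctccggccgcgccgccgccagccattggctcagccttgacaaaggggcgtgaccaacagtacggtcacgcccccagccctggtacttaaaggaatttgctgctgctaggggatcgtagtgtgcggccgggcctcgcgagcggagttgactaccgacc
Vim: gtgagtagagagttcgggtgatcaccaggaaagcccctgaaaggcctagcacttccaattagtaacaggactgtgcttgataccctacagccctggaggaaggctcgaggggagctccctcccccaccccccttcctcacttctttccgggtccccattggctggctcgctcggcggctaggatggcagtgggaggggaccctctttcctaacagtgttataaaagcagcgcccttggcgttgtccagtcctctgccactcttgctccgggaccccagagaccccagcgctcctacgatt

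The Epcam window held 2 such sites, at -187 (CACCTG) and at -19 (CAGGTG) from the start site, and the Snai1 window held 1, at -126 (CACCTG). The Vim and Twist1 windows and all Zeb2 windows held 0. Of the 32851 promoter windows in the table, 6640 (20.2%) held the letters on either strand, and 2 of the 5 EMT genes with a window read did. A match is a description of letters and was not tested for binding.

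LB gave 1783 cells with a median of 25418 UMIs (unique molecular identifiers, each standing for 1 captured transcript), and LBPXRS gave 2705 cells with a median of 19058 UMIs. The summed naive pluripotency markers, which define the labelled cell type, stood at 1040 CPM (UMIs of a gene scaled to a total of 1000000) in LB and 1664 CPM in LBPXRS, with 0 of 10 markers undetected in either. Few doublets were marked, 12 LB cells (0.673%) and 14 LBPXRS cells (0.518%), and 8 cell barcodes were shared between the kept cells of the libraries. A gene is called below when its CPM differed at least 2-fold, on the scale of log2((CPM + 1)/(CPM + 1)), with at least 10 CPM in either group. The median log2 ratio over all genes tested was -0.17 for LBPXRS over LB, and -0.07 when LBPXRS was set against LB cells without T, Mesp1 or Hand1 UMIs. Levels are compared within a gene, never between genes.

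Across the whole libraries, 3 of the 5 EMT genes that reached the level for a call were at least 2-fold lower in LBPXRS (Epcam, Cdh2 and Vim), where 10.4% of all genes tested were called lower. None of the 5 was called higher, against 7.98% of all genes. The epithelial gene Epcam and the mesenchymal genes Cdh2 and Vim were thus lower together. Cdh2 reached that level only through LB, the library where it was higher. All 10 genes had UMIs in both libraries.

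Among the adhesion genes of epithelia, Epcam stood in LB at 177 CPM (95% Poisson interval 173 to 181) and in LBPXRS at 22.7 CPM (21.4 to 24.1). The level in LBPXRS was 7.78-fold lower (7.32 to 8.28). Cdh1 stood in LB at 64.7 CPM (62.4 to 67.1) and in LBPXRS at 35.8 CPM (34.2 to 37.5), a 1.81-fold lower level that did not reach the 2-fold threshold. Cdh1 lies on chromosome 8, where the median log2 ratio over 455 genes was -0.61, close to the value of -0.84 for Cdh1; the part of the chromosome in the Cdh1 value was not tested. For Epcam, on chromosome 17, the median over the 403 genes of its chromosome was 0.01.

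Among the mesenchymal genes, Vim stood in LB at 152 CPM (148 to 156) and in LBPXRS at 19.8 CPM (18.6 to 21), a 7.67-fold lower level (7.19 to 8.20). Cdh2 stood in LB at 11.1 CPM (10.1 to 12.1) and in LBPXRS at 0.695 CPM (0.486 to 0.962), from 503 and 36 UMIs, a 15.9-fold lower level (11.3 to 23.0). Each of the 36 LBPXRS cells with Cdh2 held a single UMI. Fn1 stood apart from them, at 139 CPM in LB (136 to 143) and in LBPXRS at 108 CPM (105 to 111), a 1.29-fold lower level.

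The transcription factors were all below the level for a call in both libraries. Zeb1 was the exception among the 10 genes in direction: it stood in LB at 3.65 CPM (3.12 to 4.25) and in LBPXRS at 9.57 CPM (8.75 to 10.4), a 2.62-fold higher level (2.20 to 3.15). Its relative Zeb2 had 187 UMIs in LB, or 4.11 CPM (3.54 to 4.74), and 7 UMIs in LBPXRS, or 0.135 CPM (0.0543 to 0.278), a 30.4-fold lower level (14.5 to 76.8). The pair of ZEB genes therefore lay in opposite directions in these libraries. Snai1 had 8.38 CPM in LB and 0.887 CPM in LBPXRS, 9.44-fold lower (6.94 to 13.1). Twist1 had 3.21 and 0.907 CPM, 3.54-fold lower (2.53 to 5.03), and Snai2 had 1.67 and 0.675 CPM, 2.47-fold lower (1.64 to 3.81). With TMM scaling Zeb1 reached 10 CPM and was called higher.

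**Figure D1:**
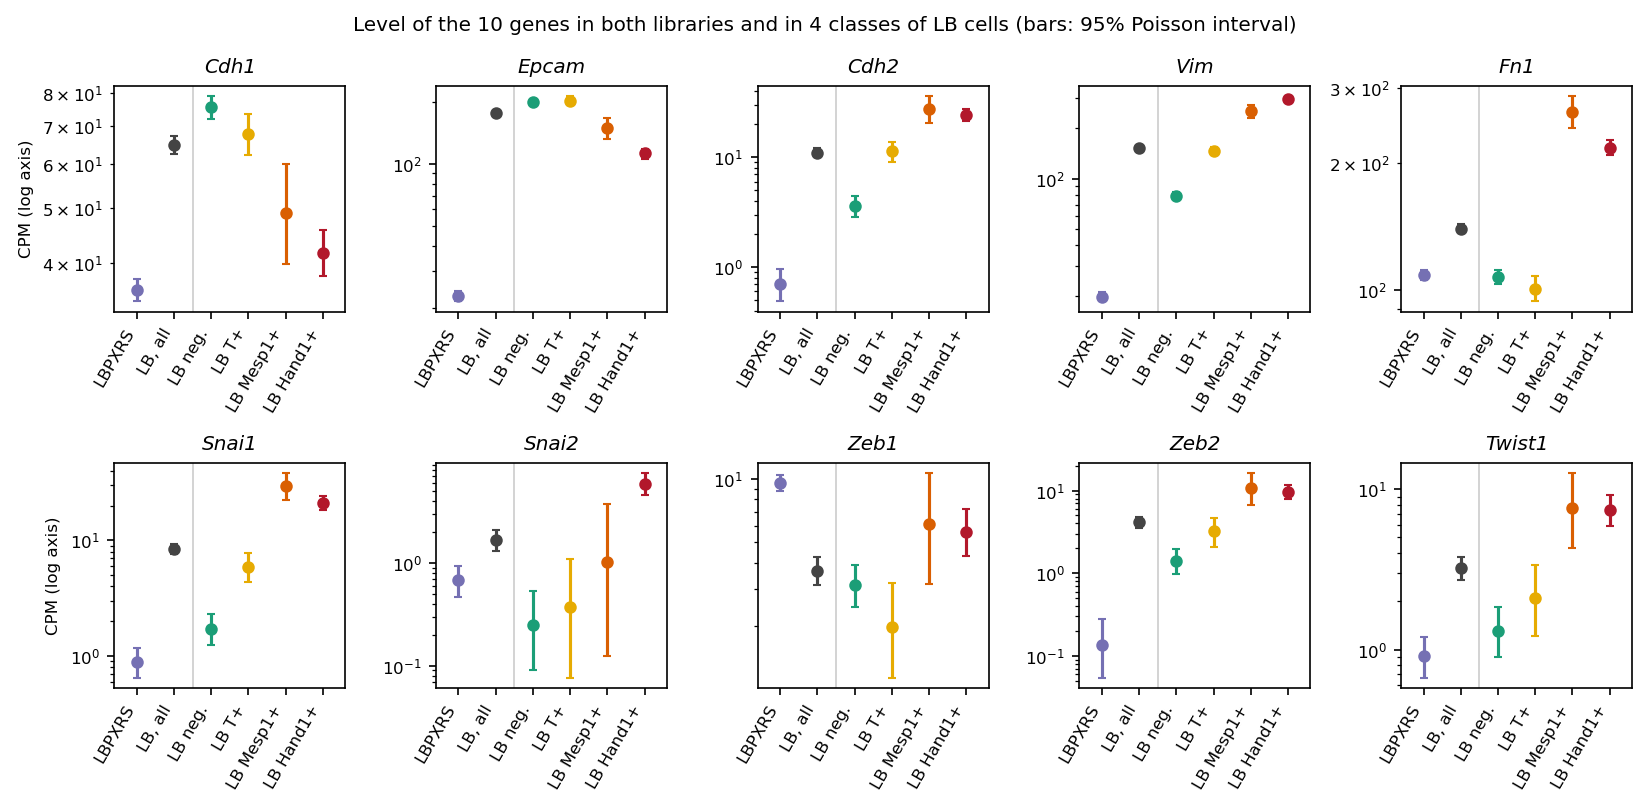
Level of each gene in CPM (vertical axis, log scale, separate for each gene) in both libraries and in the 4 classes of LB cells, with bars for the 95% Poisson interval of counting. Cdh1 and Epcam are lower, and Cdh2, Vim, Snai1, Zeb2 and Twist1 higher, in LB cells with Mesp1 or Hand1 than in LB cells without these markers, and Zeb1 alone is highest in LBPXRS.

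LB is a mixture, and LBPXRS was therefore also set against the 968 LB cells with 0 UMIs of T, Mesp1 and Hand1 (54.3% of LB cells). These cells were still mixed: 655 lay in the naive pluripotent-like clusters described below, 152 in a formative-like, 46 in a mesoderm-like and 31 in a primitive streak-like cluster. Of the 4 EMT genes that reached the level for a call, 3 were lower in LBPXRS (Cdh1, Epcam and Vim), where 7.32% of all genes were called lower, and 0 were higher, where 7.69% were. These comparisons share the LBPXRS cells with those above, and their values are set side by side only.

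Epcam had 200 CPM in these LB cells and was 8.80-fold lower in LBPXRS (8.26 to 9.39). Cdh1 had 75.4 CPM and was 2.10-fold lower (1.97 to 2.25), just past the threshold, beside a median log2 ratio of -0.50 over its chromosome. Vim had 79.1 CPM and was 3.998-fold lower (3.70 to 4.32). TMM scaling took Cdh1 from a log2 ratio of -1.05 to -0.96, short of a call. Against the 655 naive pluripotent-like cells alone, a choice made after seeing the data, Epcam was 8.05-fold lower (7.53 to 8.61) and Vim 3.63-fold lower (3.34 to 3.95), where 6.02% of all genes were called lower and 8.95% higher, while Cdh1 was 1.73-fold lower (1.60 to 1.86) and no longer called.

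Cdh2 had 3.57 CPM in these LB cells and was 5.14-fold lower in LBPXRS (3.45 to 7.80), and Zeb2 had 1.39 CPM and was 10.3-fold lower (4.51 to 27.6). Snai1, at 1.72 CPM, was 1.94-fold lower (1.25 to 3.02). These ratios rested in large part on the mesoderm-like and streak-like cells among them, which held 39 of the 87 Cdh2 UMIs, 24 of the 34 Zeb2 UMIs and 22 of the 42 Snai1 UMIs. In the 655 naive pluripotent-like cells Cdh2 had 1.35 CPM, 1.94-fold above LBPXRS (1.11 to 3.35), and Zeb2 had 0.112 CPM from 2 UMIs and Snai1 0.843 CPM, both with a ratio to LBPXRS whose interval spans 1. Fn1 was level, with 107 CPM in these LB cells and 108 CPM in LBPXRS, a ratio of 1.01 (0.966 to 1.06). Zeb1, at 3.12 CPM, was 3.07-fold higher in LBPXRS (2.41 to 3.96), and 3.10-fold higher against the naive pluripotent-like cells (2.34 to 4.17). Twist1 had a ratio of 0.691 with an interval that spans 1 (0.432 to 1.12), and of 2.69 against the naive pluripotent-like cells (1.15 to 7.70, from 6 UMIs), and Snai2 rested on 6 UMIs in these LB cells, with a ratio of 2.74 (1.14 to 7.98) that lay on the other side of 1 from its ratio to all LB cells.

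**Figure D2:**
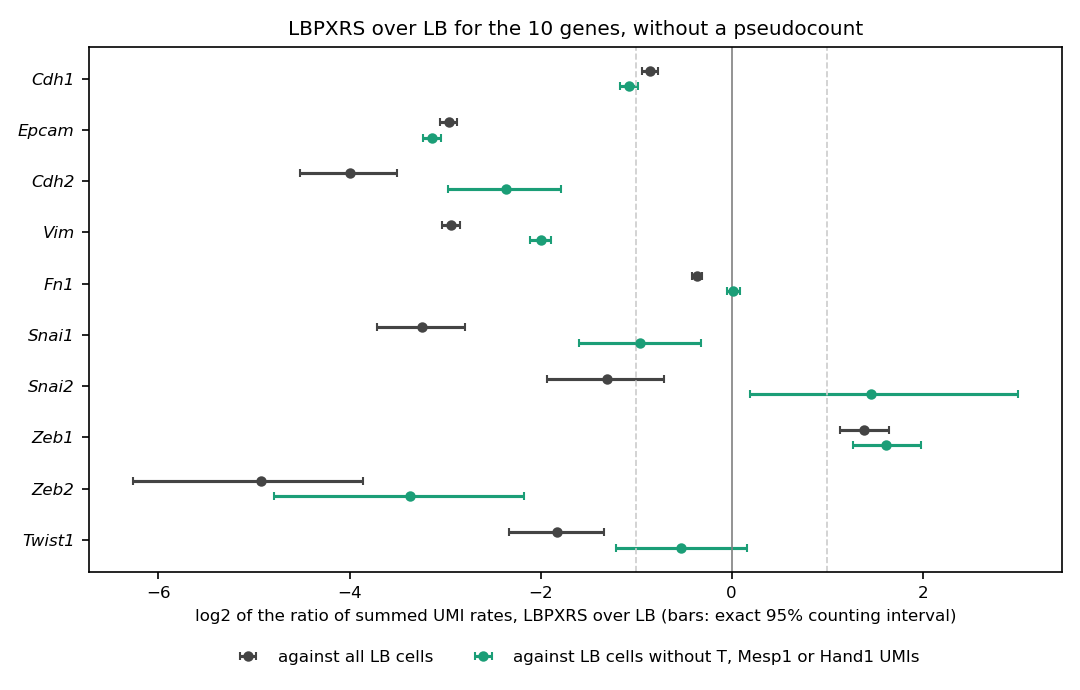
Ratio of LBPXRS to LB for the 10 genes on a log2 axis without a pseudocount, against all LB cells (grey) and against LB cells without T, Mesp1 or Hand1 UMIs (green), with exact 95% counting intervals and dashed lines at 2-fold. Epcam and Vim lie past the 2-fold line on the left in both comparisons, Zeb1 past the line on the right in both, and Fn1 near 0 in the second.

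The LB cells were next sorted by markers into classes. Cells with a Hand1 UMI formed the Hand1 class (409 cells, 22.9%), cells with Mesp1 and no Hand1 the Mesp1 class (88 cells, 4.94%), and cells with T alone the T class (318 cells, 17.8%). Median depths were 25725 UMIs in cells without the markers, 25190 in the T class, 21718 in the Mesp1 class and 25854 in the Hand1 class. The same classes could not be formed in LBPXRS, which had 3 UMIs of T, 28 of Mesp1 and 0 of Hand1. A class is a set of cells of 1 library, not a sample, and it was cut at 1 UMI: 96 cells of the T class, 42 of the Mesp1 class and 122 of the Hand1 class held just 1 UMI of their marker.

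In the T class, 1 of the 5 EMT genes at the level for a call was higher than in cells without the markers (Cdh2), where 4.24% of all genes were called higher. None was lower, where 3.22% were. In the Mesp1 class 5 of 7 were higher (Cdh2, Vim, Fn1, Snai1 and Zeb2), where 6.53% of all genes were, and 0 were lower, where 3.69% were. In the Hand1 class 4 of 6 were higher (Cdh2, Vim, Fn1 and Snai1), where 9.57% of all genes were, and 0 were lower, where 5.14% were. These 3 comparisons share the cells without markers. Cdh2 and Snai1 in the Mesp1 and Hand1 classes, Zeb2 in the Mesp1 class and Cdh2 in the T class were under 10 CPM in cells without the markers and entered only through the class where they were higher, so these counts describe the classes and support nothing further.

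Cdh2 had 3.57 CPM in cells without the markers (2.86 to 4.40), 11.3 in the T class (9.15 to 13.9), 27.6 in the Mesp1 class (20.8 to 36.1) and 24.4 in the Hand1 class (21.6 to 27.5). The intervals of the Mesp1 and Hand1 classes overlapped, and both lay above the T class. Against cells without the markers the level was 3.18-fold higher in the T class (2.35 to 4.31), 7.74-fold in the Mesp1 class (5.41 to 11) and 6.85-fold in the Hand1 class (5.36 to 8.82).

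Vim had 79.1 CPM in cells without the markers (75.6 to 82.7), 146 in the T class (138 to 155), 252 in the Mesp1 class (230 to 275) and 299 in the Hand1 class (289 to 309), with no overlap between neighbours in this order. The T class was 1.85-fold above cells without the markers, short of a call. It passed 2-fold when the class needed 2 UMIs of T (log2 ratio 1.10).

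Fn1 had 107 CPM in cells without the markers (103 to 111), 101 in the T class (94.0 to 108), 264 in the Mesp1 class (241 to 287) and 217 in the Hand1 class (209 to 226). Its level in the T class overlapped that of cells without the markers, while Vim and Cdh2 had higher levels with no overlap. The T class was mixed: 47.5% of it lay in the primitive streak-like cluster, which had 174 CPM of Fn1 (164 to 184), and 30.2% in the formative-like cluster, which had 45.6 CPM (40.8 to 50.7). Within the Hand1 class the Fn1 ratio of 2.03 (1.92 to 2.15) sat at the threshold, and the log2 ratio fell just under 1 with equal weight for each cell (0.99) and without the marked doublets, which ends the call.

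Snai1 showed the largest fold among the genes called in the Mesp1 and Hand1 classes. It had 1.72 CPM in cells without the markers (1.24 to 2.33), 5.92 in the T class (4.36 to 7.85), 29.7 in the Mesp1 class (22.5 to 38.4) and 21.1 in the Hand1 class (18.5 to 24.0). This is 17.2-fold higher in the Mesp1 class (11.4 to 26.3) and 12.2-fold higher in the Hand1 class (8.78 to 17.4). Zeb2 had 1.39, 3.21, 10.7 and 9.59 CPM in the same order, 7.71-fold higher in the Mesp1 class (4.25 to 13.7). Twist1 had 1.31, 2.10, 7.68 and 7.42 CPM, so that the Mesp1 and Hand1 classes were 5.85-fold (2.94 to 11.1) and 5.65-fold (3.72 to 8.79) above cells without the markers, below the level for a call.

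Snai2 and Zeb1 followed other patterns. Snai2 had 6, 3, 2 and 65 UMIs in the 4 classes, or 0.246, 0.370, 1.02 and 5.88 CPM, and the Hand1 class was 23.9-fold above cells without the markers (10.4 to 67.5). Its intervals overlapped between the other 3 classes. Zeb1 had 3.12, 1.97, 6.14 and 5.61 CPM, with intervals that overlapped for the first pair and a Hand1 class 1.80-fold above cells without the markers (1.27 to 2.55); its level in every LB class was below the 9.57 CPM of LBPXRS, and the interval of the Mesp1 class (3.17 to 10.7) reached that value.

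The epithelial genes were lower in the Mesp1 and Hand1 classes, by less than 2-fold over each class as a whole. Cdh1 had 75.4 CPM in cells without the markers (72.0 to 78.9), 67.6 in the T class (62.0 to 73.5), 49.1 in the Mesp1 class (39.8 to 59.997) and 41.7 in the Hand1 class (38.0 to 45.7). Epcam had 200 CPM (195 to 206), 202 (193 to 212), 149 (132 to 167) and 112 (106 to 118). The T class was level with cells without the markers for Epcam, at a ratio of 1.01 (0.955 to 1.07). The Hand1 class was 1.81-fold lower for Cdh1 (1.63 to 2.01) and 1.79-fold lower for Epcam (1.68 to 1.90). Neither passed 2-fold there, but both did when the Hand1 class needed 2 UMIs of Hand1 (log2 ratios -1.09 and -1.16), and likewise for the Mesp1 class with 2 UMIs of Mesp1 (-1.74 and -1.31). Cells with a single marker UMI and trophoblast-like cells held much of the Cdh1: the 42 Mesp1-class cells with 1 Mesp1 UMI had 75 of the 96 Cdh1 UMIs of that class, and 36 trophoblast-like cells had 197 of the 461 of the Hand1 class.

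**Figure D3:**
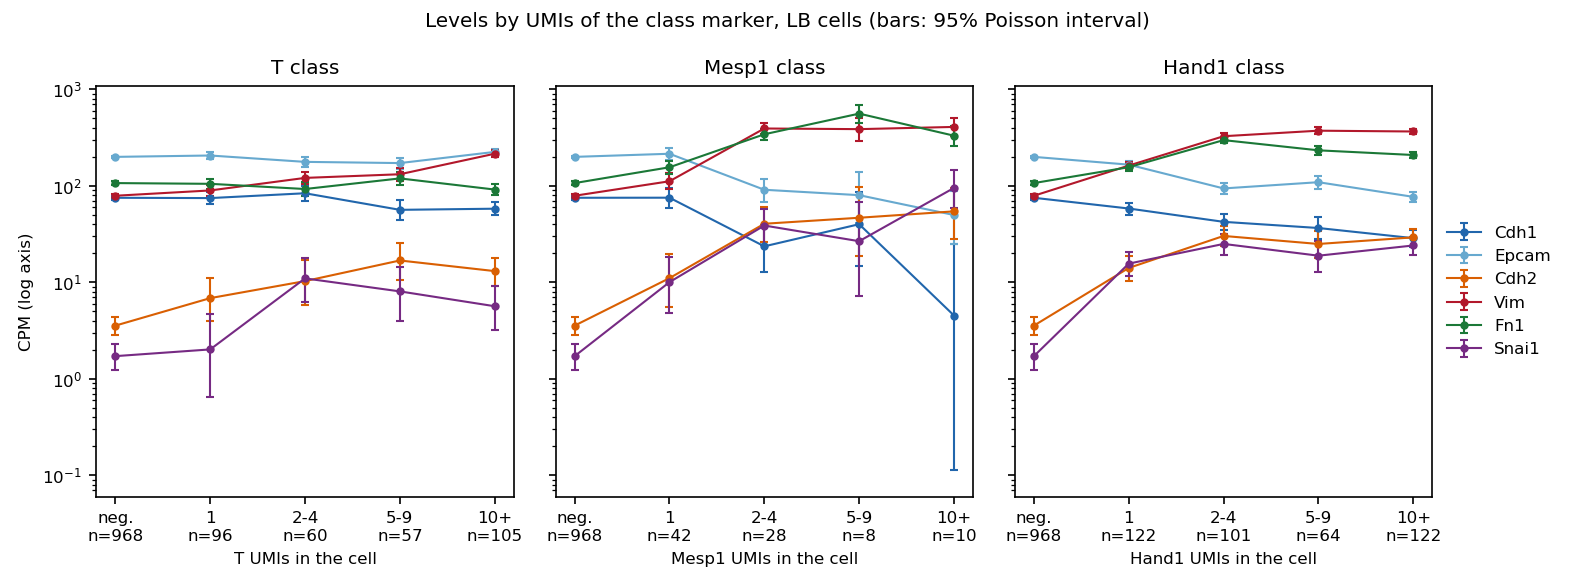
Level in CPM (vertical axis, log scale) of 6 EMT genes in LB cells without the markers (neg.) and in cells with 1, 2 to 4, 5 to 9 and 10 or more UMIs of T, Mesp1 or Hand1 (horizontal axis, with the number of cells), with 95% Poisson intervals. Cells with 1 UMI of Hand1 or Mesp1 lie between cells without the markers and cells with 2 to 4 UMIs for Vim, Cdh2 and Snai1, and along the T axis Cdh1 is between 56.5 and 84.0 CPM.

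The classes were next split by the number of marker UMIs in a cell, and the levels did not all run in 1 direction with it. In the Hand1 class Vim had 162 CPM in the 122 cells with 1 Hand1 UMI (149 to 177), and 328 CPM in the 101 cells with 2 to 4 (305 to 351). In the same cells Cdh1 had 58.4 CPM (50.4 to 67.3) and 42.5 CPM (34.7 to 51.4), and in the 122 cells with 10 or more it had 28.8 CPM (23.6 to 34.8). In the T class Vim had 89.8 CPM with 1 T UMI (78.4 to 102) and 216 CPM with 10 or more (199 to 234), while Cdh1 had 74.8 CPM with 1 (64.4 to 86.4), 84.0 with 2 to 4 (69.7 to 100.3), 56.5 with 5 to 9 (44.6 to 70.7) and 58.1 with 10 or more (49.5 to 67.7). The last lay below cells with 2 to 4 T UMIs and below cells without the markers, with no overlap, and overlapped cells with 1. In the Mesp1 class Snai1 had 10.1 CPM with 1 Mesp1 UMI (4.83 to 18.5), 38.9 with 2 to 4 (24.6 to 58.3), 26.7 in the 8 cells with 5 to 9 (7.29 to 68.5) and 95.4 CPM in the 10 cells with 10 or more (59.1 to 146). In the same class Cdh1 had 75.5 CPM with 1 (59.4 to 94.7), near cells without the markers, 23.7 with 2 to 4 (12.9 to 39.7), 40.1 with 5 to 9 (14.7 to 87.3) and 4.54 from 1 UMI with 10 or more (0.115 to 25.3). Fn1 did not follow the marker count: over the 4 steps it had 156, 298, 234 and 209 CPM along Hand1, 105, 92.9, 120 and 91.7 along T, and 156, 343, 562 and 332 along Mesp1. Snai1 along T had 2.02, 11.01, 8.08 and 5.67 CPM. Free RNA can give single marker UMIs to cells that do not express the marker, and its part in the 1-UMI cells was not tested; 39 Hand1-class cells lay in naive pluripotent-like clusters.

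The Hand1 class held unlike cells. Of its 409 cells, 225 lay in a mesoderm-like cluster led by Foxf1 and Hand1, 72 in a primitive streak-like cluster and 36 in a trophoblast-like cluster; trophoblast is an epithelium that also expresses Hand1. In those 36 cells Cdh1 had 150 CPM and Epcam 281 CPM, Cdh2 had 0 UMIs, and Vim had 222 CPM. In the other 373 cells Cdh1 had 27.1 CPM, Epcam 89.1 CPM, Cdh2 27.7 CPM and Vim 309 CPM. The 36 cells were thus higher for both epithelial genes and without Cdh2, but not without Vim. Leaving them out took Cdh1 and Epcam past 2-fold lower in the Hand1 class, with log2 ratios of -1.44 and -1.16, where 5.49% of all genes tested were called lower and 8.96% higher. The summed trophoblast markers stood at 1342 CPM in the Hand1 class and 135 CPM in cells without the markers, with Elf5 at 0 in both; this list holds Krt8 and Krt18, keratin genes described below. Without the trophoblast-like cells the sum stood at 950 CPM.

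Splits within the classes, chosen after their values were seen, are given as a description. The 108 Hand1 cells that also held Foxf1, a mesoderm factor, had 4.04 CPM of Cdh1, 32.0 of Epcam and 382 of Vim, against 55.6, 141 and 268 CPM in the 301 without Foxf1. The 152 Hand1 cells that held Mesp1 had the highest Cdh2 of the Hand1 splits (44.4 CPM) and 398 CPM of Fn1, and the 184 with Hand1 alone had 14.2 and 121 CPM. Fn1 and Cdh2 were therefore high in the Hand1 cells that held Mesp1, whereas Vim was 288 to 320 CPM whether Mesp1, T or neither was held.

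Cells that held a Snai1 UMI had less Cdh1 and Epcam and more Cdh2 and Fn1 than the others in each of the 4 classes, with overlapping intervals in some. Vim was higher with Snai1 except in the Mesp1 class (239 and 257 CPM, overlapping), and Zeb1 in cells without the markers and Twist1 in the T class, from 1 UMI each, were lower with Snai1. Snai2 was also lower with Snai1, at 0 UMIs in 3 classes and at 4.89 against 6.26 CPM in the Hand1 class, with overlapping intervals. For the Hand1 class Cdh1 had 17.0 CPM in the 112 cells with Snai1 (12.7 to 22.3) and 51.2 CPM in the 297 without (46.4 to 56.4), and Cdh2 had 41.1 (34.2 to 49.0) and 18.0 CPM (15.2 to 21.2). Of the 36 trophoblast-like cells only 3 held Snai1. Outside that cluster Cdh1 had 9.25 CPM in the 109 cells with Snai1 (6.09 to 13.5) and 34.8 CPM in the 264 without (30.5 to 39.5), and Cdh2 had 43.1 (35.9 to 51.4) and 21.1 CPM (17.8 to 24.9). In the Mesp1 class Cdh1 had 12.1 CPM in the 28 cells with Snai1 (4.87 to 24.9) and 64.7 CPM in the 60 without (52.0 to 79.6). In the T class Cdh1 had 47.3 CPM in the 30 cells with Snai1 (33.5 to 65.0) and 69.8 CPM without (63.9 to 76.1), intervals that overlap, whereas Cdh2 had 49.8 (35.6 to 67.9) and 7.12 CPM (5.32 to 9.33) and Fn1 351 (311 to 395) and 73.2 CPM (67.1 to 79.7). In cells without the markers, the 31 with Snai1 had 12.7 CPM of Cdh2 (6.34 to 22.7), against 3.23 CPM in the others (2.55 to 4.05), and overlapping Cdh1. Depths differed little, with medians of 25811 and 26176 UMIs in the Hand1 class. The classes also mix clusters. The mesoderm-like cluster had 28.2 CPM of Snai1 and 5.62 of Cdh1, and the larger naive pluripotent-like cluster 0.755 and 64.6 CPM. A split by Snai1 can thus sort cells by cluster, and differences within a cluster were not tested.

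The share of cells with at least 1 of the 5 transcription factors was 13.9% in cells without the markers (11.8 to 16.3, exact binomial), 23.0% in the T class (18.4 to 28.0), 53.4% in the Mesp1 class (42.5 to 64.1) and 54.5% in the Hand1 class (49.6 to 59.4). It was 19.9% in LBPXRS (18.4 to 21.4). After each cell was thinned to 5000 UMIs these shares were 4.18%, 8.44%, 17.4%, 19.3% and 6.03%, in the same order. In LBPXRS, 415 of the 514 cells with a single factor held Zeb1. In the Hand1 class, 25 cells held 3 or more of the 5 factors, against 5 of 968 cells without the markers and 1 of 2705 LBPXRS cells. These genes are low, so a cell without a UMI is not a cell without the transcript.

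Cells with both cadherins were rare at equal depth. Thinned to 5000 UMIs, 12 of 1733 LB cells (0.692%, exact binomial interval 0.358 to 1.21) held both Cdh1 and Cdh2, and without thinning 113 of 1783 (6.34%) did. A Cdh1 UMI was found in 11.5% of the 104 thinned LB cells with Cdh2 (6.11 to 19.3) and in 26.5% of the 1629 without (24.4 to 28.7). Without thinning these shares were 35.6% (30.4 to 41.2) and 68.8% (66.4 to 71.2). None of the 113 cells with both was marked as a doublet.

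The classes differed in which cadherin was found. Without thinning, the share with Cdh1 and no Cdh2 was 69.5% in cells without the markers, 60.1% in the T class, 31.8% in the Mesp1 class and 28.6% in the Hand1 class, and the share with Cdh2 and no Cdh1 was 3.10%, 6.29%, 26.1% and 32.0%. Both were held by 11% of the T class (7.79 to 15), 11.4% of the Mesp1 class (5.59 to 19.9), 7.82% of the Hand1 class (5.41 to 10.9) and 3.72% of cells without the markers (2.62 to 5.11). In the T class Cdh1 was found in 63.6% of cells with Cdh2 (49.6 to 76.2) and 72.6% of those without (66.8 to 77.9), intervals that overlap. In the Hand1 class these shares were 19.6% (13.8 to 26.6) and 47.6% (41.2 to 54.0), which do not. As a background for Cdh2, the 45 trophoblast-like cells, at a median of 32858 UMIs, held 0 UMIs of it, which allows up to 2.40 CPM. The mesoderm-like cluster had 5.62 CPM of Cdh1 (4.10 to 7.51) and 37.9 CPM of Epcam (33.8 to 42.5), and free RNA of these genes in it can be no more than that. No LB cell type that should lack Vim was available.

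**Figure D4:**
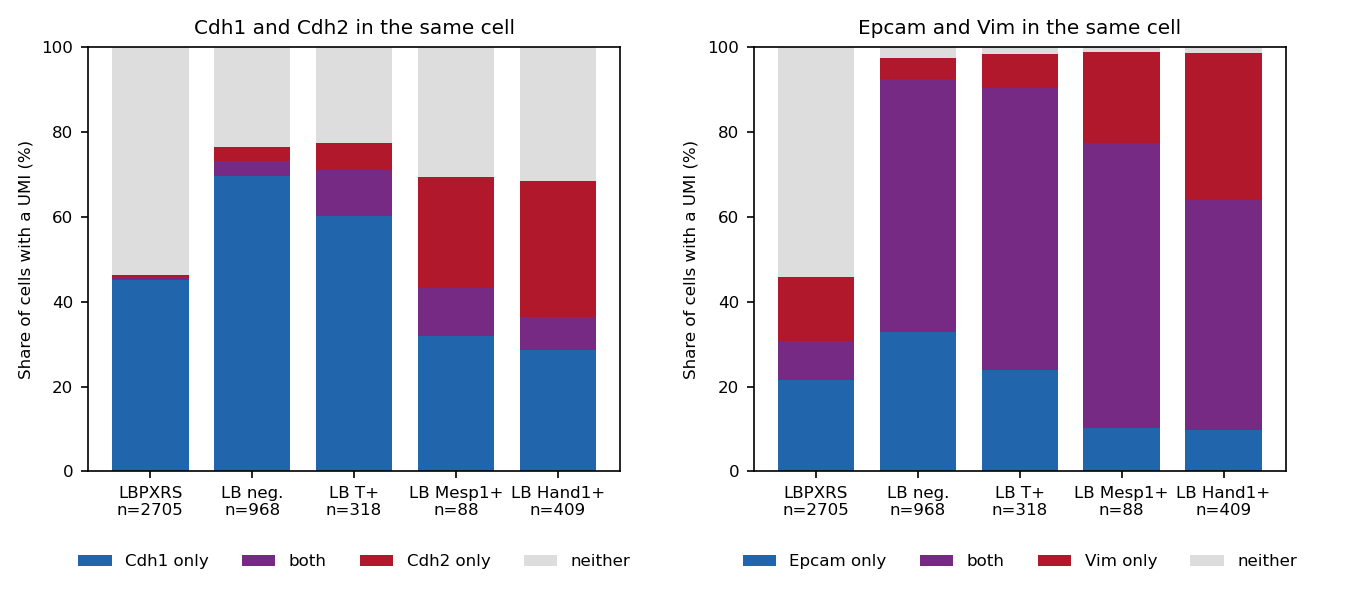
Share of cells (vertical axis, percent, not thinned) with a UMI of Cdh1, Cdh2 or both (left) and of Epcam, Vim or both (right) in LBPXRS and in the 4 LB classes, whose cell numbers stand under the bars. The share with Cdh2 and no Cdh1 is 32.0% in the Hand1 class and 3.10% in cells without the markers, and most LB cells of every class hold both Epcam and Vim, while most LBPXRS cells hold neither.

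The pair of Epcam and Vim was set out in the same way. Without thinning, 60.01% of LB cells held both (57.7 to 62.3), with 59.7% in cells without the markers, 66.4% in the T class, 67% in the Mesp1 class and 54.3% in the Hand1 class. In LBPXRS 9.13% held both (8.07 to 10.3) and 54.1% neither. Thinned, the shares with both were 17.0% in LB and 1.18% in LBPXRS. Within LB an Epcam UMI was found less often in cells with Vim, in 82.1% (79.9 to 84.2) against 92.1% of those without (89.3 to 94.3), and when thinned in 42.1% (38.5 to 45.9) against 58.5% (55.4 to 61.5). By class, the shares in cells without the markers were 92.5% (90.1 to 94.4) and 92.4% (89.1 to 94.99), and 51.0% (44.7 to 57.3) and 61.7% (57.9 to 65.4) when thinned, and in the Hand1 class 61.2% (55.9 to 66.2) and 87.0% (73.7 to 95.1), and when thinned 28.6% (23.2 to 34.4) and 41.0% (32.7 to 49.7), which overlap. In LBPXRS it lay the other way, at 37.6% (33.9 to 41.4) against 28.5% (26.6 to 30.5), while the thinned shares of 13.2% (9.18 to 18.3) and 9.80% (8.64 to 11.1) overlapped. The balance of the pair within a cell, taken as the Vim share of its Epcam and Vim UMIs in cells with at least 3 such UMIs, had a median of 20% in cells without the markers, 33.3% in the T class, 57.1% in the Mesp1 class and 84.6% in the Hand1 class. In LBPXRS only 224 of 2705 cells had 3 such UMIs, with a median of 61.3%. Over the UMIs of all cells the Vim share was 46.6% in LBPXRS and 46.2% in LB, so the median over those few cells does not stand for that library; in the LB classes it was 28.3%, 42.0%, 62.8% and 72.7% in the same order.

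Clusters, built in each library with the 10 genes left out of the variable genes, showed where each gene was highest. In the mesoderm-like LB cluster (314 cells) Cdh1 had 5.62 CPM (4.10 to 7.51) and Epcam 37.9 CPM (33.8 to 42.5), the lowest of the 6 LB clusters with 50 or more cells for both. In the same cluster Cdh2 had 35.3 CPM, Vim 358, Fn1 293, Snai1 28.2, Snai2 6.49, Zeb1 9.98, Zeb2 15.2 and Twist1 11.4 CPM, each the highest of these 6 clusters. For Fn1 the interval (281 to 305) overlapped that of an unnamed cluster of 60 cells (262 CPM, 225 to 303). Among these 6 clusters, 8 of the 10 genes thus had their highest level, and both epithelial genes their lowest, in the mesoderm-like cluster.

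The primitive streak-like cluster (291 cells) held mixed levels: Cdh1 54.6 CPM and Epcam 201 CPM, near the 64.6 and 178 CPM of the larger naive pluripotent-like cluster (608 cells), together with Vim at 245 CPM against 71.6, Cdh2 at 22.1 against 1.39, Fn1 at 174 against 95.8, and Snai1 at 17.0 against 0.755. The formative-like cluster (270 cells), whose leading genes include Fgf5 and Dnmt3b of the formative epiblast, had the lowest Vim and Fn1 of the 6 (40.8 and 45.6 CPM) and 118 CPM of Cdh1 (110 to 126), above the naive and the streak-like clusters. It also held 30.2% of the T class. The trophoblast-like cluster had Cdh1 at 153 CPM and Vim at 206 CPM. The highest Vim of any LB cluster, 759 CPM, was in an unnamed cluster of 18 cells with a median of 7460 UMIs.

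None of the LBPXRS clusters was named by its markers. Over the 4 clusters of 467 to 858 cells, Epcam ranged from 19.4 to 26.4 CPM, Vim from 17.2 to 22.0, Cdh1 from 26.7 to 44.6, Fn1 from 86.6 to 129 and Zeb1 from 7.64 to 12.2 CPM. In these 4 clusters Cdh2 was below 1 CPM, and Zeb2 was 0.271 CPM or less. The cluster led by Krt8 and Krt18 (858 cells), keratins of simple epithelia, had the highest Cdh1 and Fn1 of the 4. Zeb1 was thus found across the large LBPXRS clusters, each above the 2.96 CPM of the larger naive pluripotent-like LB cluster.

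**Figure D5:**
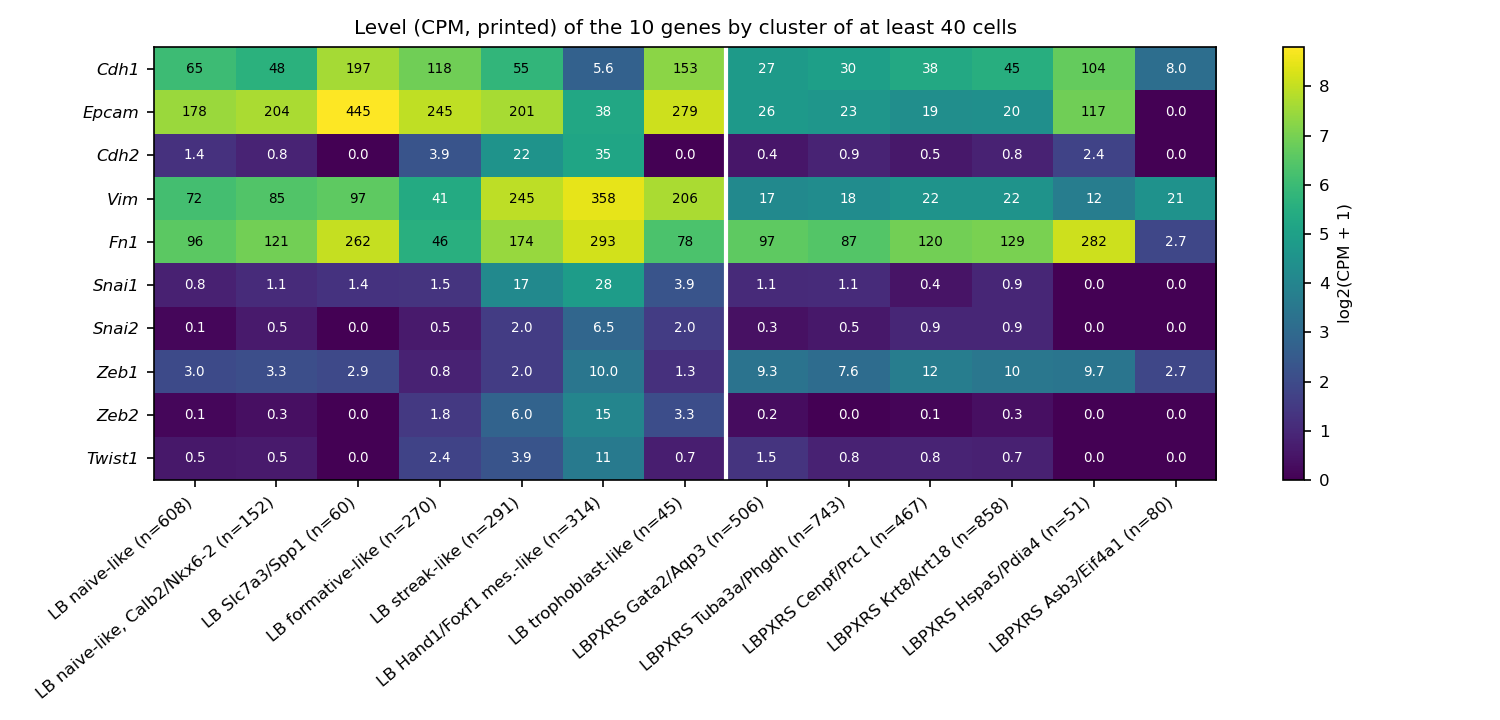
Level of the 10 genes in CPM (numbers in the cells, colour on a log2(CPM + 1) scale) in the clusters of at least 40 cells of LB (left of the white line) and LBPXRS (right), named by marker class or by leading genes. The mesoderm-like LB cluster has the lowest Cdh1 (5.62 CPM) and the highest Cdh2, Vim, Fn1 and factors of the LB clusters shown, and Epcam, Vim and Cdh2 are low in most LBPXRS clusters.

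Other genes of the same process were counted in lists chosen with earlier results of these data known; the median log2 ratio over all genes, beside which list medians are read, was 0.12 in the T class, 0.11 in the Mesp1 class and 0.19 in the Hand1 class. A gene under 10 CPM in 1 group entered only through the group where it was higher, so the counts and medians of the lists are descriptions. Over all genes, 10.4% were called lower and 7.98% higher in LBPXRS than in LB. Among adherens junction partners 3 of 9 tested were lower in LBPXRS than in LB and 0 higher, beside those 10.4% and 7.98%, with a median log2 ratio of -0.74. The nectins Nectin2 (69.1 and 19.0 CPM) and Nectin3 (16 and 6.89 CPM) and plakoglobin, Jup (67.8 and 33.2 CPM), were called. The catenin gene Ctnna1, which links cadherins to actin, was not, at 86.2 and 63.7 CPM. In the marker classes the list differed little, with 0 to 1 of 10 called and medians between -0.02 and 0.20.

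Tight junction and polarity genes gave 4 of 12 lower and 1 higher in LBPXRS, beside 10.4% and 7.98% of all genes, at a median of -0.60. Claudins lay on both sides: Cldn6 had 47.6 CPM in LB and 7.02 in LBPXRS, and Cldn7 had 111 and 26.8, while Cldn4 had 22.4 and 61.7 CPM. In the Mesp1 class 4 of 11 were lower and 1 higher, beside 3.69% and 6.53% of all genes, and Cldn6 had 15.4 CPM there against 52.9 in cells without the markers. The Hand1 class had 1 of 11 lower and 1 higher, beside 5.14% and 9.57% of all genes. Outside the trophoblast-like cluster, a split added after seeing the data, 5 of 11 were lower, where 5.49% of all genes were. Among epithelial regulators 3 of 9 were lower in LBPXRS and 2 higher, beside 10.4% and 7.98% of all genes. The splicing factor Esrp1 had 14.1 CPM in LB and 1.04 in LBPXRS, and the grainyhead factor Grhl3 7.69 and 28.7 CPM. Of 11 regulators 2 were lower in the Hand1 class and 1 higher, beside 5.14% and 9.57% of all genes. Outside the trophoblast-like cluster 5 of 10 were lower, beside 5.49%.

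The genes called among desmosome and keratin genes were higher in the marker classes, most of them keratins. Of 7 tested, 6 were lower in LBPXRS and 1 higher, beside 10.4% and 7.98% of all genes, at a median of -2.97. Of the 6 lower genes, 3 were under 10 CPM in LBPXRS. In the T class 3 were higher and 0 lower, beside 4.24% and 3.22% of all genes. In the Mesp1 class 4 were higher and 0 lower, beside 6.53% and 3.69%. The Hand1 class also had 4 higher and 0 lower, beside 9.57% and 5.14%. Krt8 had 39.996 CPM in cells without the markers, 104 in the T class, 125 in the Mesp1 class and 587 in the Hand1 class. Krt18 had 43.0, 117, 98.3 and 559 CPM, and Krt19 had 22.4, 94.5, 183 and 289 CPM. Outside the trophoblast-like cluster the Hand1 class had 400.3 CPM of Krt8, 359 of Krt18 and 192 of Krt19, and 4 genes were called higher, where 8.96% of all genes were. The desmosome gene Pkp2 was not called in any class, with 33.0, 27.3, 18.4 and 24.3 CPM. These keratins form filaments of simple epithelia, and here they were higher in the same classes as Vim, a filament protein of mesenchyme.

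Mesenchymal structure and matrix genes gave 9 of 13 lower and 2 higher in LBPXRS, beside 10.4% and 7.98% of all genes, at a median of -1.91. In the Hand1 class 14 of 15 tested were higher and 1 lower (Nid2), beside 9.57% and 5.14% of all genes. The median was 2.26, beside 0.19 over all genes, and 5 of the 14 were under 10 CPM in cells without the markers. Outside the trophoblast-like cluster 12 of 14 were higher and 0 lower, where 8.96% and 5.49% of all genes were. The smooth muscle actin gene Acta2 had 1.97 CPM in cells without the markers and 37.6 CPM in the Hand1 class, Tagln had 12.3 and 132 CPM, and Col1a1, of fibrillar collagen, had 1.85 and 27.2 CPM. In the Mesp1 class 5 of 10 were higher and 0 lower, beside 6.53% and 3.69% of all genes. S100a10, an annexin partner, had 751 CPM there against 182 in cells without the markers. The basement membrane genes Sparc (161 CPM in LB and 460 in LBPXRS) and Nid1 (6.64 and 53.4 CPM) were those higher in LBPXRS. The summed fibroblast markers, 7 of 9 of which are also in this list, stood at 17.5 CPM in LB, 5.09 in LBPXRS and 41.4 in the Hand1 class, with Lum at 0 in both libraries and 3 of 9 markers at 0 in the Hand1 class.

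Of the matrix remodelling and motility genes, the 6 called higher in the Hand1 class were all under 10 CPM in cells without the markers, so their count shows nothing about the list. The hyaluronan receptor gene Cd44 had 1.39 CPM there and 11.8 CPM in the Hand1 class. In LBPXRS 3 of 5 were lower than in LB, beside 10.4% of all genes, each under 10 CPM in LBPXRS. Among other transcription factors linked to EMT, 7 of 11 were higher and 1 lower in the Hand1 class, beside 9.57% and 5.14% of all genes; 4 of the 7 were under 10 CPM in cells without the markers. Twist2, the relative of Twist1, had 0.533 and 14.4 CPM there. In LBPXRS 3 of 8 were lower and 1 was higher, beside 10.4% and 7.98% of all genes. Id3, an inhibitor of helix-loop-helix factors and a BMP target, had 147 CPM in LB and 6.33 in LBPXRS. Gsc had 5.72 and 13.5 CPM.

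Signals that act on EMT were tallied likewise. Of the gastrulation genes, 8 of 14 were lower in LBPXRS, each under 10 CPM there, and 1 higher, beside 10.4% and 7.98% of all genes. Fgf8, which acts in the exit of cells from the streak, had 113 CPM in LB and 0.733 in LBPXRS. Fgf4 had 39.5 and 205 CPM. The lists for the marker classes contain T and Mesp1, which chose the cells. Of 12 in the T class 4 were higher and 1 lower, beside 4.24% and 3.22% of all genes. Of 15 in the Mesp1 class 8 were higher and 2 lower, beside 6.53% and 3.69%. Of 16 in the Hand1 class 10 were higher and 4 lower, beside 9.57% and 5.14%. TGF-beta ligands and receptors gave 4 of 10 lower and 0 higher in LBPXRS, beside 10.4% and 7.98% of all genes, with 3 of the 4 under 10 CPM there. In the Hand1 class 5 of 12 were higher and 0 lower, beside 9.57% and 5.14%, with 3 of the 5 under 10 CPM in cells without the markers, and the ligand gene Tgfb2 had 48.2 CPM against 3.77 in cells without the markers. Splice and RNA regulators gave 4 of 7 lower in LBPXRS and 0 higher, beside 10.4% and 7.98% of all genes. Hmga2 had 56.6 CPM in LB and 11.7 in LBPXRS, and 140 CPM in the Hand1 class against 28.3 in cells without the markers.

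Set against LB cells without the markers, LBPXRS gave these values for the lists, beside a median of -0.07 and shares of 7.32% lower and 7.69% higher over all genes. Mesenchymal structure genes gave 4 of 11 lower and 2 higher at a median of -0.76, gastrulation genes 3 of 9 lower and 1 higher at -0.84, and desmosome and keratin genes 4 of 6 lower and 1 higher at -1.64. Krt19 had 22.4 CPM in these LB cells and 1.68 CPM in LBPXRS. Tight junction and polarity genes gave 3 of 11 lower and 1 higher at -0.67, next to -0.60 against all LB cells. Adherens junction partners gave 4 of 10 lower and 0 higher at -0.56, and epithelial regulators 3 of 10 lower and 2 higher at -0.01. Other transcription factors gave 3 of 8 lower and 1 higher at -0.51. TGF-beta genes gave 3 of 9 lower and 0 higher at -0.44, and splice and RNA regulators 4 of 7 and 0 at -1.21. Only 1 matrix remodelling and motility gene was tested, and it was not called. The numbers of genes tested differ between these comparisons, and the differences between them were not tested.

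The genes whose log-normalised level was most like that of an EMT gene over the 1783 LB cells are given as a description, among 4822 genes of at least 20 CPM. Cells of 1 library share depth and free RNA, and r was smaller after thinning. For Cdh1 the closest were the claudin genes Cldn6 (Pearson r = 0.41) and Cldn7 (r = 0.39), and Epcam was the fourth (r = 0.38). For Epcam they were Cldn7 (r = 0.47), the protease inhibitor gene Spint2 (r = 0.43) and Pou5f1 (r = 0.43). For Vim they were the collagen chaperone gene Serpinh1 (r = 0.48) and Krt8 (r = 0.46), with Mkrn1 (r = -0.53) and the pluripotency gene Pou5f1 (r = -0.51) at the other end. For Fn1 they were Gpc3 (r = 0.44) and Mesp1 (r = 0.42), with Bex4 lowest (r = -0.40). Thinned to 5000 UMIs, Vim and Krt8 had r = 0.31 and Cdh1 and Cldn6 r = 0.15.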

How the data were processed

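The 2 deposited matrices hold UMI counts per gene and cell barcode, which the authors made with Cell Ranger 4.0.0 and the build mm10, per the submitters' processing notes; the annotation and the cell calling settings are not given in the sources used here. Barcodes with at least 1000 genes and at most 10% mitochondrial UMIs were kept (1783 of 2008 in LB, 2705 of 3111 in LBPXRS). UMIs were summed over the cells of a library or class, divided by their total and scaled to 1000000 (CPM), and compared as log2 ratios with a pseudocount of 1 CPM, which understates the change of low genes. Folds without a pseudocount carry exact counting intervals at 95%. These cover counting error only, not differences between cultures. For shares, cells were thinned to 5000 UMIs, leaving out 50 LB and 84 LBPXRS cells, and the share without thinning stands beside. The shares of each class with 1 or both genes of a pair are given without thinning only. Scrublet marked so few cells that doublets may have been missed; these stayed in, and one alternative removed them.

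Each library was clustered with scanpy 1.11.5 (2000 variable genes without the 10 EMT genes, 30 components, 15 neighbours, Leiden resolution 0.5). A cluster was named where at least 3 markers of a class were raised 2-fold at 5 CPM, more than for any other class, and its 10 leading genes and its depth did not go against the name. No name was given where most markers of the class were not raised and their median log2 ratio was below 1. Named genes were the 10 members, genes at the ends of each list in a comparison, and for the 4 members of at least 20 CPM in LB the genes at the ends of the correlations. The members, the lists and the markers were chosen with earlier results of these data known. TMM factors came from edgeR 4.0.16. Cdh1, Fn1 and Snai2 were named without a promoter, and Cdh2 and Zeb1 were not read. The calling rule was run on simulated counts with 4-fold changes in genes of at least 20 CPM and counting error only. Changes near 2-fold and lower genes were not tried.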

Additional observations from a re-analysis of the deposited data

How the results depend on the processing

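No paired analysis was possible because each condition is 1 library and no comparison rests on a test. Of the member log2 ratios recomputed under 8 to 10 alternatives per comparison, none of a called gene changed sign, and 27 of 27 values of called genes stayed past 2-fold for LBPXRS against LB, 28 of 30 against LB cells without the markers, 8 of 8 in the T class, 40 of 40 in the Mesp1 class and 34 of 36 in the Hand1 class. These tallies include the CPM minimum of 1, which does not enter a ratio, so its values could not change and add no support. In the Mesp1 class the genes called higher fell from 5 to 4 in a class set after thinning, with equal weight per cell and without the top 5% of UMIs, where Zeb2 missed the level of 10 CPM. Leaving out the low-depth clusters (103 LB and 131 LBPXRS cells) or, for the libraries, the top 5% of UMIs was chosen after seeing the data, and neither moved a count in a comparison of the libraries. Set against naive pluripotent-like cells alone, also chosen later, 2 genes (from 3) were lower in LBPXRS, without Cdh1, and the uncalled log2 ratios turned from -0.53 to 0.03 for Snai1, -1.08 to 0.03 for Zeb2 and -0.28 to 0.51 for Twist1. With a CPM minimum of 1 the counts of genes called lower in LBPXRS became 6 (from 3) against LB and 5 (from 3) against cells without the markers, and those higher became 1 and 1 (from 0), in each case Zeb1; TMM scaling also gave 1 higher against LB. With that minimum 7 genes (from 4) were higher in the Hand1 class and 2 (from 1) in the T class. A class that needed 2 UMIs, or was set after thinning, gave 2 higher in the T class, and 2 lower (from 0) in the Mesp1 class and in the Hand1 class, Cdh1 and Epcam. The count lower in the Hand1 class was also 2 outside the trophoblast-like cluster and with equal weight per cell, and 1 without the top 5% of UMIs. Apart from the splits by cluster, no share of all genes is given under these changed settings. The counts under them are therefore not to be read beside the shares above. The share of LB cells with both cadherins was 6.34% without thinning and 2.16% at 10000 UMIs (from 0.692%), so it follows depth. Uncalled ratios near 0 changed sign under some settings: Snai2 in the Mesp1 class, with 2 UMIs, ranged from -0.32 to 1.70, and Fn1 in the T class from -0.27 to 0.18. At this depth Snai2 rested on 2 to 6 UMIs in the classes other than Hand1, and differences among them were not detectable.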

Other observations

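The small clusters of low depth differed from each other and from the rest of their library. In LB, an unnamed cluster of 60 cells with a median of 10781 UMIs and a median mitochondrial share of 7.11% had Cdh1 at 197 CPM (166 to 233), Epcam at 445 (397 to 498) and Fn1 at 262 CPM (225 to 303), with Vim at 96.5 CPM (74.8 to 123) and 0 UMIs of Cdh2. For Cdh1 and Epcam these were the highest levels of any LB cluster. Another of 25 cells, with a median of 4387 UMIs and a mitochondrial share of 0.0538%, had the reverse: Vim at 478 CPM (375 to 600) from 74 UMIs, but Fn1 at 12.9 CPM (1.56 to 46.6) from 2 UMIs and Cdh1 at 6.46 CPM from 1. A smaller cluster of 18 cells, with a median of 7460 UMIs and a mitochondrial share of 6.16%, had both Vim at 759 CPM (623 to 916) and Fn1 at 745 CPM (609.8 to 901), the highest of LB, with Epcam at 239 CPM (165 to 334) and 0 UMIs of Cdh1, which allows up to 25.9 CPM.

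In LBPXRS a cluster of 51 cells led by Pmel and Hspa5, an endoplasmic reticulum chaperone, with a mitochondrial share of 7.01%, had Cdh1 at 104 CPM (75.6 to 141), Epcam at 117 (85.9 to 155) and Fn1 at 282 CPM (233 to 338), the highest of that library for all 3, and Vim at 12.1 CPM (3.94 to 28.3). A cluster of 80 cells with a mitochondrial share of 0.0430% and a median of 3424.5 UMIs had 0 UMIs of Epcam, which allows up to 9.86 CPM, Fn1 at 2.67 CPM (0.0677 to 14.9), Cdh1 at 8.02 CPM (1.65 to 23.4) and Vim at 21.4 CPM (9.24 to 42.2), near the rest of its library. The part of depth and of the mitochondrial share in these levels was not tested.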
